A study of Camellia sinensis with 6 samples.

Results

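Early light-induced proteins (ELIPs) were examined in leaves of the tea plant (Camellia sinensis) cultivar 'Huangjinya', whose sunlit leaves are yellow and whose shaded leaves are green. Unigenes, the sequences of a de novo transcriptome assembly, were taken as ELIPs where the description of their best protein match in the Nr database held the words early light-induced. The words matched 1 of 127252 unigenes, CL3850.Contig2, a fragment of 263 nt named putative early light induced protein 2. The assembly grouped it with 1 longer sequence of 848 nt, CL3850.Contig1. That contig carried the Nr name putative cold-inducible protein, but its best Swiss-Prot match was an early light-induced protein of the chloroplast (score of 226) and its best nucleotide match was early light-induced protein 3 of Rhododendron catawbiense (score of 141). Both contigs of the cluster are therefore described here, with only CL3850.Contig2 chosen by the rule.

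ELIPs are nucleus-encoded proteins of the thylakoid membrane in the chloroplast and belong to the family of chlorophyll a/b-binding proteins. Their transcripts appear quickly when dark-grown seedlings are first lit, and in mature leaves they build up under light in excess of what photosynthesis can use, particularly in the cold or under UV-B. They are thought to bind free chlorophyll and xanthophylls for a time, and in Arabidopsis the bZIP transcription factor HY5 takes part in switching their genes on. One-helix proteins are smaller members of the same extended family, and PsbS, a relative without a role in light harvesting, is needed for the rapid dissipation of excess light as heat.

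The tested plants of this cultivar were kept under a single-layer net that reduced the light by 45% (shaded, Y+S), and the others were left in full sunlight (Y). The study ran in late April, and leaves were harvested after more than a week of shading. All plants were two-year-old and field-grown, and mRNA of the third leaf was sequenced from 3 shaded and 3 sunlight libraries, each from different plants. The study names no other treatment, so the groups share genotype, age and leaf position. Levels are given as FPKM, fragment counts scaled to the length of the unigene and the depth of the library, and as counts of fragments, and the values of a group follow the library numbers (Y+S1 to Y+S3, then Y1 to Y3).

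The libraries held between 10022397 and 18742989 counted fragments. The study left out Y+S3 and Y1 after a principal component analysis, so the comparison was fitted on the remaining 4 libraries and again on all 6. Y+S3 stood apart in that unigenes best matched to bacteria, fungi, animals, algae or oomycetes took 2.84% of its fragments, against 0.276% to 0.790% in the other shaded and 0.418% to 0.428% in the sunlight libraries. Unigenes of at least 3000 nt took 9.26%, 9.41% and 4.77% of the fragments in the shaded libraries, and 5.54%, 6.77% and 7.60% in the sunlight libraries. The leaf markers fixed for mesophyll (75 unigenes, among them the small subunit of Rubisco and chlorophyll a/b-binding proteins) took 3.36% to 6.89% of the fragments in shaded and 4.63% to 5.22% in sunlight libraries, so the labelled tissue carried its markers in every library.

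Transcripts of the ELIP cluster were far less abundant in shaded than in sunlight leaves, for both contigs and in every library. CL3850.Contig1 was among the most abundant transcripts of the sunlight leaves, with places 67, 88 and 78 by FPKM among all unigenes in the sunlight libraries, and took places 7817, 1081 and 7730 in the shaded libraries. Neither contig passed the threshold of an adjusted p of 0.05 in edgeR with its filter on low counts, on the 4 libraries of the study or on all 6, while both did in DESeq2.

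CL3850.Contig1 had 231, 1234 and 139 fragments in the shaded libraries, against 14330, 7237 and 6812 in the sunlight libraries. Per length and depth these were 14.5, 107 and 14.6 FPKM in shaded leaves, against 1353, 792 and 801 FPKM in sunlight leaves. The groups did not overlap: the lowest sunlight library had 7.43 times the level of the highest shaded one. The mean was 45.2 ± 53.1 FPKM in shaded and 982 ± 321 FPKM in sunlight leaves (SD, n = 3 each), 21.7-fold lower under the net. The shaded libraries varied more among themselves than the sunlight ones. Y+S2 stood 7.27 times above the next shaded library, whereas the highest sunlight library, Y1, stood 1.71 times above the lowest. On the log2(FPKM + 0.5) scale the SD was 1.63 in shaded and 0.44 in sunlight libraries. In bulk leaf RNA, fewer cells that express a gene and less RNA per cell cannot be told apart.

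CL3850.Contig2, the sequence the rule chose, was rarer and had the same order of groups. It had 12, 44 and 0 fragments in the shaded libraries, against 112, 97 and 104 in the sunlight libraries. These counts correspond to 2.43, 12.2 and 0 FPKM in shaded leaves, against 34.1, 34.2 and 39.5 FPKM in sunlight leaves. A count of 0 at the depth of Y+S3 allows a level of up to 1.02 FPKM (3 fragments, counting error only). The lowest sunlight library had 2.79 times the level of the highest shaded one, again Y+S2. The mean was 4.89 ± 6.48 FPKM in shaded and 35.9 ± 3.06 FPKM in sunlight leaves (SD, n = 3 each), 7.34-fold lower under the net. Sunlight libraries were close to each other for this contig, the highest being 1.16 times the lowest.

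**Figure D1:**
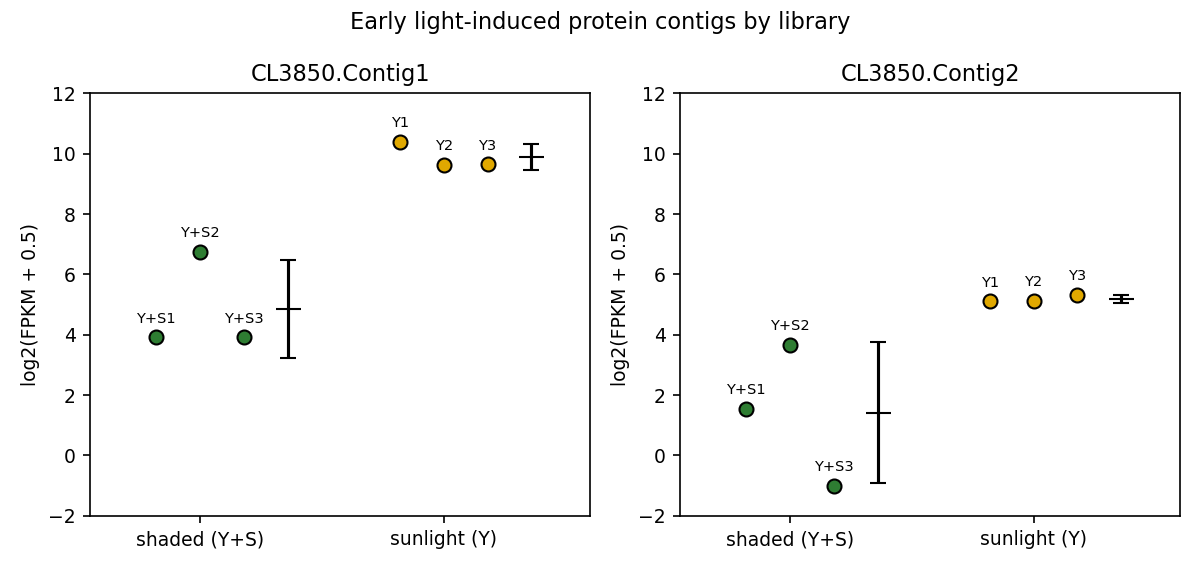
Level of each ELIP contig on the log2(FPKM + 0.5) scale in the 3 shaded (Y+S, left, green) and 3 sunlight (Y, right, yellow) libraries, with a bar for the mean and its SD beside each group. All shaded points lie below all sunlight points for both contigs, and Y+S2 is the highest shaded library in each (107 and 12.2 FPKM).

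Summed over both contigs, the cluster held 243, 1278 and 139 fragments in the shaded libraries and 14442, 7334 and 6916 in the sunlight libraries. CL3850.Contig1 supplied nearly all of them. The best nucleotide matches differed: tea ELIP2 for CL3850.Contig2 (score of 474) and the Rhododendron sequence for CL3850.Contig1 (score of 141). Whether the contigs come from 1 gene or from different genes was not tested. The level of CL3850.Contig2 was 16.8% and 11.5% of that of CL3850.Contig1 in Y+S1 and Y+S2, while in Y+S3 the count of 0 allows up to 6.96%. In the sunlight libraries the shorter contig stood at 2.52%, 4.32% and 4.92% of the longer one. The ratio thus differed between libraries, and Y+S3 did not share the high ratio of the other shaded libraries. Across the 6 libraries, which form separate groups, the log2 levels of the contigs had a Pearson correlation of 0.93, given as a description of sequences that share libraries and may share a gene. Only uniquely mapped fragments were counted, so fragments common to both contigs could have been lost from either.

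In the edgeR quasi-likelihood fit of all 6 libraries, CL3850.Contig1 had a log2 fold change of -4.76 ± 0.89 (SE), the 7th lowest among 59300 unigenes tested, with an adjusted p of 0.485 in edgeR. Among the 222 tested unigenes at least as abundant, none had a lower fold change. CL3850.Contig2 had a log2 fold change of -3.13 ± 0.97 (SE), with an adjusted p of 0.538 in edgeR. Both were among the 3.67% of unigenes that had an unadjusted p below 0.05 in edgeR and lower levels in shaded leaves. The adjusted values are to be read against the whole table: edgeR called 0 of 59300 unigenes in this fit (0.0%), although 4782 had an unadjusted p below 0.05, and its smallest adjusted p was 0.475. DESeq2 called 592 unigenes on the same libraries and limma on log2(FPKM + 0.5) called 19. In DESeq2 both contigs were called lower in shaded leaves, with adjusted p = 7.39e-07 for CL3850.Contig1 and 0.044 for CL3850.Contig2, where 0.138% of all unigenes were called lower and 0.469% in either direction. In limma CL3850.Contig1, but not CL3850.Contig2, was called lower, as were 3 unigenes in all (0.00403%), at a log2 difference of -5.04 ± 0.66 (SE) and adjusted p = 0.0343.

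In the 4 libraries the study kept (Y+S1 and Y+S2 against Y2 and Y3), CL3850.Contig1 had a log2 fold change of -3.84 ± 0.77 (SE), with an adjusted p of 0.15 in edgeR. It was the 24th lowest of 64281 unigenes and again the lowest among those at least as abundant, here 290. CL3850.Contig2 had a log2 fold change of -2.46 ± 0.57 (SE), with an adjusted p of 0.167 in edgeR. Both were again below an unadjusted p of 0.05, as were 7.69% of unigenes in this direction. Neither was called, and edgeR called 5 unigenes lower in shaded leaves (0.00778%) and 34 in either direction (0.0529%). DESeq2 called both contigs lower (adjusted p = 0.0318 for CL3850.Contig1 and 0.00353 for CL3850.Contig2), where 0.449% of all unigenes were called lower and 0.82% in either direction. At the stricter limit of the study, which asks for an adjusted p of 0.001 together with a size of at least 1 on the log2 scale, edgeR called no unigene in either fit (0.0%), and of the 2 contigs DESeq2 called only CL3850.Contig1, over 6 libraries, where it called 0.0856% of all unigenes (0.198% over 4).

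The separation of the groups does not single out the ELIP contigs by itself. All 3 shaded libraries lay below all 3 sunlight libraries in TMM-normalised counts (CPM) for both contigs, and for 7.28% of the unigenes tested. What set the contigs apart was the size of the difference, as their places by fold change over 6 libraries show, 7 for CL3850.Contig1 and 93 for CL3850.Contig2. CL3850.Contig2 was less extreme than CL3850.Contig1 and took place 253 over 4 libraries. Among unigenes at least as abundant, CL3850.Contig2 took place 28 of 19750 over 6 libraries and 53 of 19411 over 4. An exact two-sided permutation test of the 3 shaded against the 3 sunlight levels gave p = 0.1 for each contig, the smallest that 3 against 3 libraries allow.

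**Figure D2:**
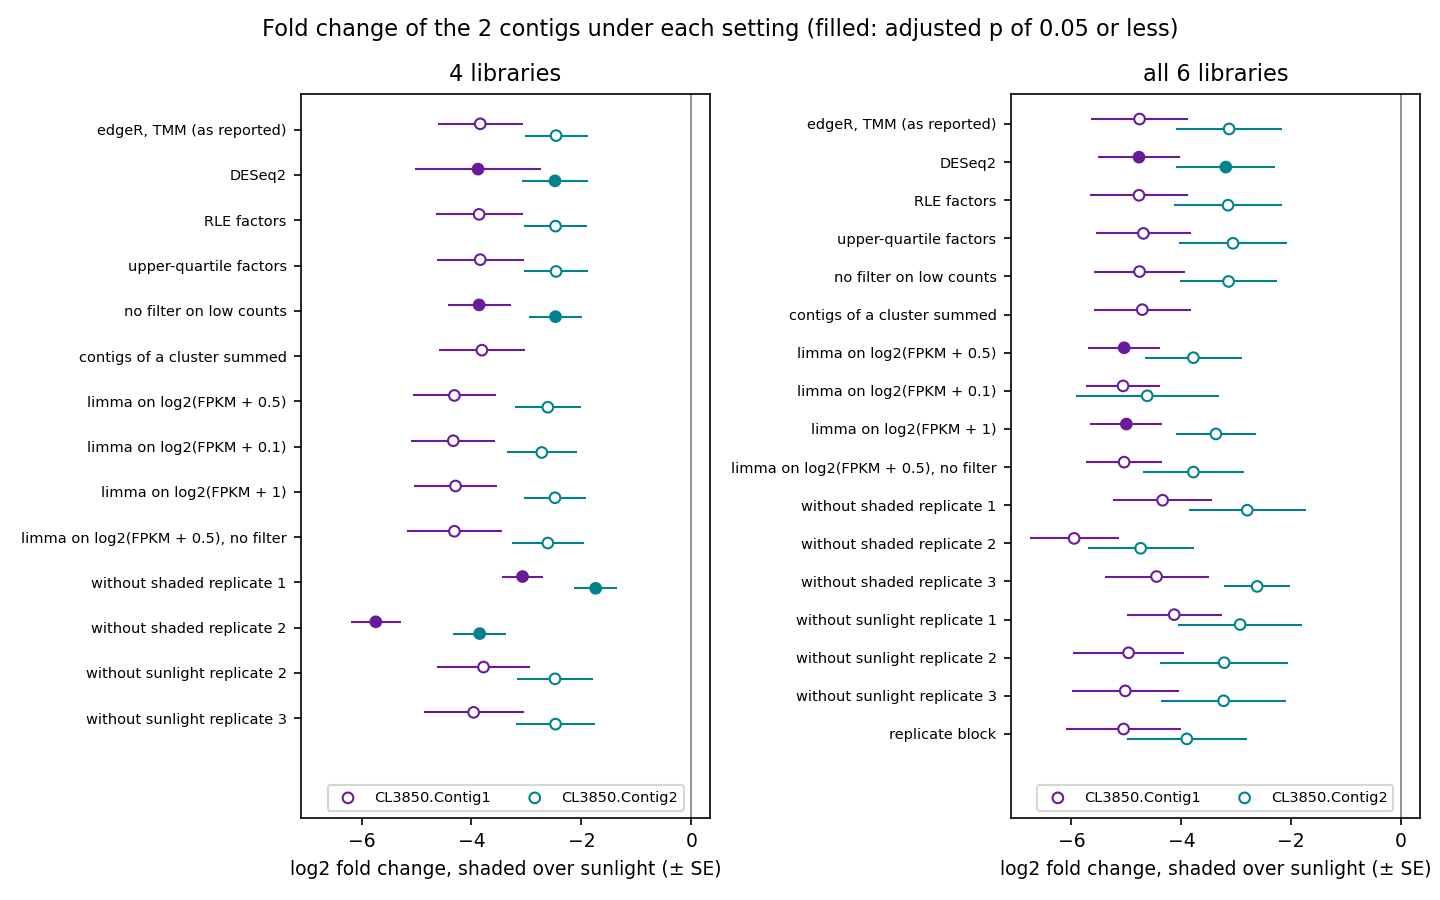
Log2 fold change of shaded over sunlight with its SE (horizontal axis) for CL3850.Contig1 and CL3850.Contig2 under each setting (rows), on 4 libraries (left) and all 6 libraries (right); filled points have an adjusted p of 0.05 or less. In the row of contigs summed per cluster, the point drawn as CL3850.Contig1 is the sum of both contigs (-3.81 on 4 libraries, -4.71 on 6), and CL3850.Contig2 has no point. Every point lies below 0, between -5.95 and -1.74, and the filled points are those of DESeq2 in both panels, of the fits without a count filter or without 1 shaded library on 4 libraries, and of limma with a filter at pseudocounts of 0.5 and 1 for CL3850.Contig1 on 6 libraries.

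The call on 4 libraries changed with the filter and with the libraries used. Without a filter on low counts, edgeR called both contigs (adjusted p = 0.00429 for CL3850.Contig1 and 0.0239 for CL3850.Contig2) among 954 unigenes, 0.331% of all unigenes being called lower. Without Y+S1 the log2 fold change of CL3850.Contig1 was -3.07 and without Y+S2 it was -5.74, both called by edgeR, but the spread then rests on Y2 and Y3 alone and 3569 and 6513 unigenes were called, 2.82% and 5.21% being called lower. CL3850.Contig2 had log2 fold changes of -1.74 without Y+S1 and -3.85 without Y+S2. Over 6 libraries without Y+S2 the fold changes of CL3850.Contig1 and CL3850.Contig2 were -5.95 and -4.74, and neither was called.

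Markers of other tissues were set beside the ELIP levels. Unigenes of dividing young tissue (69 unigenes of histones, cyclin B and proliferating cell nuclear antigen) summed to 1805, 4225 and 5081 FPKM in the shaded libraries and to 10960, 4339 and 3342 FPKM in the sunlight libraries. Over 6 libraries 44 of their 61 tested unigenes had lower fitted levels in shaded leaves, with a median log2 fold change of -0.55, and over 4 libraries 46 of 61 with a median of -0.49, beside 0.04 and 0.03 over all unigenes tested. None was called by edgeR. DESeq2 called 1 of them higher on 6 libraries, where it called 418 of 126122 unigenes higher, and none on 4. By sign alone, most of the list had the direction of the ELIP contigs. An unadjusted p below 0.05 in edgeR was reached by 0 lower and 3 higher of them over 6 libraries. Over 4 libraries it was reached by 5 lower and 1 higher. Of all unigenes tested, 3.67% over 6 and 7.69% over 4 reached it with lower levels. The summed levels overlapped between groups, and Y1, which had the highest level of CL3850.Contig1, also had the highest sum. Epidermal and cuticular unigenes summed to 8052 to 13190 FPKM in shaded and 7330 to 9894 FPKM in sunlight leaves, and vascular ones to 763 to 1788 FPKM in shaded and 719 to 1023 FPKM in sunlight leaves. Of the epidermal list, 34 of 56 tested unigenes had lower fitted levels over 6 libraries (median -0.18) and 39 of 59 over 4 (median -0.23). Over 6 libraries 7 lower and 3 higher had an unadjusted p below 0.05 in edgeR, and over 4 libraries 8 and 3. The share of all unigenes tested that was lower was 3.67% and 7.69%. After TMM scaling 9 of the 56 were separate and lower and 4 separate and higher, beside 4319 and 3954 of 59300 unigenes. DESeq2 called 2 of the list lower in each fit, where it called 0.138% of all unigenes lower over 6 libraries and 0.449% over 4. Of the vascular list, 13 of 21 had lower fitted levels over 6 libraries (median -0.22) and 16 of 21 over 4 (median -0.26), none called. There 0 lower and 1 higher had an unadjusted p below 0.05 in edgeR over 6 libraries, and 3 lower and 0 higher over 4. Of these marker lists no member was at 0 in every library, and the part of tissue makeup, of foreign RNA in Y+S3 or of the share of long unigenes in the ELIP result was not tested. Over the libraries without Y+S3 and Y1, the contigs kept their direction as given above.

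Another 16 unigenes matched the ELIP words only by nucleotide similarity, each to the tea ELIP2 gene. Their scores were low, between 58.0 and 139 against 474 for CL3850.Contig2, and 1 of the 16 had any protein match in Nr. They were 209 to 1014 nt long, 15 had a count in some library, and the highest level was 4.17 FPKM. Only 4 passed the filter on low counts, and none of these was called, the smallest unadjusted p in either edgeR fit being 0.127. Of these 4, 3 had lower and 1 higher fitted levels in each fit, with a median log2 fold change of -0.27 over 6 libraries and -0.19 over 4. After TMM scaling 1 of the 4 was separate and lower, as were 7.28% of all unigenes tested. At such low levels a difference as large as that of the CL3850 cluster could be missed.

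Names in Nr were a poor guide to other ELIPs. Of the 6 unigenes with Nr names of light-inducible or cold-inducible proteins, CL3850.Contig1 alone had a Swiss-Prot match to an ELIP. Unigene51633 matched the zinc finger protein ZAT11, a stress-related transcription factor, and had 22.9, 10.1 and 68.1 FPKM in shaded, against 173, 49.5 and 25.7 FPKM in sunlight leaves. Unigene34635 matched a chitin-binding lectin and had 609.7, 471 and 296 FPKM in shaded, against 204, 356 and 366 FPKM in sunlight leaves. In both, the groups overlapped in FPKM, though not in TMM-normalised counts for Unigene34635. There its shaded libraries were all higher, as for 3954 of 59300 unigenes tested. Unigene10410, named light-inducible protein atls1, stood at 295 to 461 FPKM in shaded and at 408 to 611 FPKM in sunlight leaves. Unigene38675, with the same name, averaged 3.91 ± 2.09 FPKM in shaded and 4.85 ± 0.67 FPKM in sunlight leaves (SD, n = 3 each). Unigene59236, a fragment that did not pass the filter, reached 16.3 FPKM in Y+S3 and 0.758 to 3.39 FPKM in the other libraries. None of the tested ones besides CL3850.Contig1 was called by edgeR or DESeq2 on 4 or 6 libraries, though Unigene51633 was called lower (log2 fold change of -2.08) by edgeR on the 4 libraries without Y+S1.

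The one-helix proteins, the closest relatives by family, had lower fitted levels in shaded leaves in all 5 unigenes, by much smaller margins than the ELIP contigs. None was called by edgeR or DESeq2, and the median log2 fold change was -1.05 over 6 libraries and -0.76 over 4, beside 0.04 and 0.03 over all unigenes tested. The differences over 6 libraries rested in part on Y1. Without that library the log2 fold changes were -0.423 for CL7804.Contig1, -0.845 for CL7804.Contig2, -0.294 for CL8292.Contig2, -0.0581 for Unigene2779 and 0.186 for Unigene33490. Unigene2779, the most abundant, had 413, 412 and 688 FPKM in shaded, against 1342, 704 and 644 FPKM in sunlight leaves. Its groups overlapped through Y+S3. CL7804.Contig1 had 10.9, 13.8 and 13.7 FPKM in shaded, against 39.3, 18.7 and 23.1 FPKM in sunlight leaves, and the second contig of that cluster, CL7804.Contig2, had 2.83, 3.37 and 3.91 FPKM against 9.96, 6.84 and 7.82 FPKM. CL8292.Contig2 had 7.92, 9.001 and 7.67 FPKM in shaded, against 23.8, 12.1 and 11.6 FPKM in sunlight leaves. The FPKM of these last 3 unigenes did not overlap between groups, as for 7.95% of all unigenes, but after TMM scaling this held only for CL7804.Contig2. Unigene33490 had 2.91 to 4.30 FPKM in shaded and 3.84 to 5.01 FPKM in sunlight leaves.

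PsbS was represented by 3 unigenes, each with a fitted fold change below 0 and none called by edgeR or DESeq2 on 4 or 6 libraries. Without Y+S1, edgeR on the other 3 of the 4 libraries called CL2323.Contig2 (log2 fold change of -1.30) and Unigene22288 (-1.13) lower, among 3569 unigenes. CL2323.Contig1 had 569, 360 and 262 FPKM in shaded, against 328, 499 and 524 FPKM in sunlight leaves, and CL2323.Contig2 had 285, 173 and 57.9 FPKM in shaded, against 170, 359 and 404 FPKM in sunlight leaves. Both overlapped between groups, and the fold change of CL2323.Contig1 was above 0 without Y+S2. Unigene22288 had 116, 78.3 and 30.8 FPKM in shaded, against 122, 131 and 179 FPKM in sunlight leaves. Its groups did not overlap, in FPKM or after TMM scaling, as for 7.95% and 7.28% of all unigenes. The median log2 fold change was -0.91 over 6 libraries and -0.69 over 4.

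**Figure D3:**
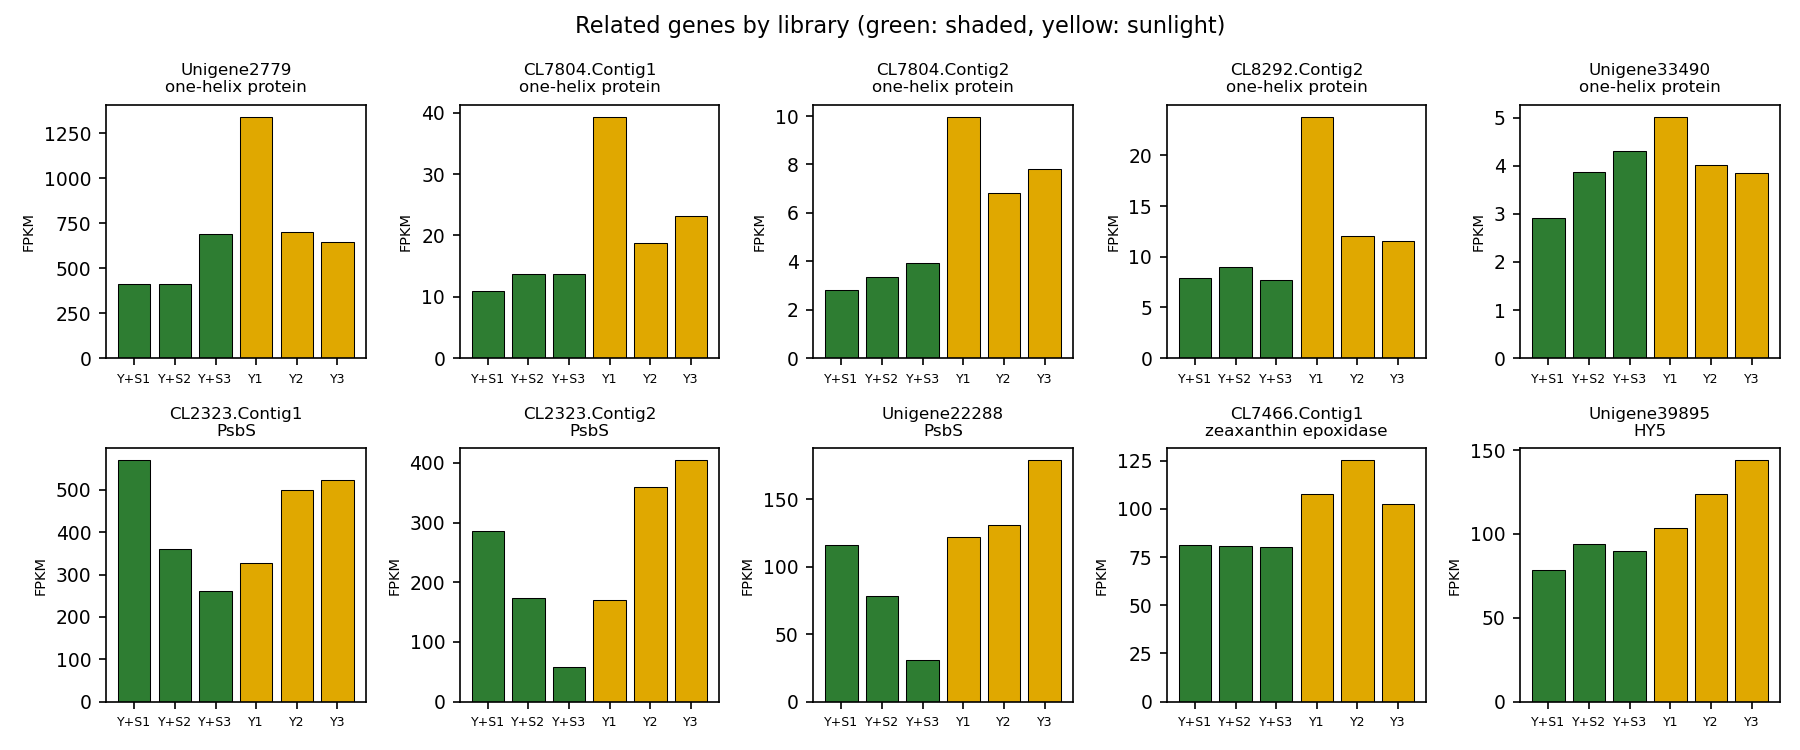
FPKM (vertical axis, from 0) in each shaded (green, left) and sunlight (yellow, right) library of the 5 one-helix proteins, the 3 PsbS unigenes, zeaxanthin epoxidase CL7466.Contig1 and HY5 Unigene39895. In FPKM the groups are separate for CL7804.Contig1, CL7804.Contig2, CL8292.Contig2, Unigene22288, CL7466.Contig1 and Unigene39895, as for 7.95% of all unigenes. Their differences are far smaller than that of CL3850.Contig1. After TMM scaling, only CL7804.Contig2 and Unigene22288 among them stay separate, as 7.28% of the unigenes tested do.

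HY5, the light-signalling factor that takes part in ELIP induction in Arabidopsis, was represented by Unigene39895. It had 78.4, 93.8 and 89.9 FPKM in shaded, against 104, 124 and 144 FPKM in sunlight leaves, without overlap in FPKM but with overlap after TMM scaling. Its log2 fold change was -0.44 ± 0.36 (SE) over 6 libraries and -0.69 ± 0.23 (SE) over 4, not called in edgeR (adjusted p = 0.757 and 0.245). Of the 94 light-signalling unigenes tested over 6 libraries (matched by the words cryptochrome, phytochrome A or B, UVR8, COP1, B-box and others), 30 had lower and 64 higher fitted levels in shaded leaves. Over all unigenes tested, 28111 were lower and 31189 higher. Some entered the list by their Swiss-Prot match alone and carry other Nr names, and contigs of the same cluster were counted singly. The median log2 fold change of the list was 0.15, and none of its unigenes was called by edgeR or DESeq2.

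The xanthophyll cycle, whose pigments ELIPs are thought to bind, had 14 of 19 tested unigenes with lower and 5 with higher fitted levels over 6 libraries, and 11 with lower and 8 with higher over 4. The median log2 fold change was -0.08 over 6 and -0.26 over 4, and none was called by edgeR or DESeq2. Some entered the list by their Swiss-Prot match alone and carry Nr names of other monooxygenases. Among these was Unigene21382, the 1 member whose groups were separate after TMM scaling. Its shaded libraries were all higher there, as for 3954 of 59300 unigenes tested. It was singled out after its values were seen. It had 9.73, 4.19 and 3.47 FPKM in shaded, against 0.962, 1.44 and 3.03 FPKM in sunlight leaves, higher under the net but not called (adjusted p = 0.528 over 6 libraries in edgeR), except on the 4 libraries without Y+S2 (log2 fold change of 2.19), where 6513 unigenes were called. CL7466.Contig1, zeaxanthin epoxidase, which turns zeaxanthin back into violaxanthin, had 81.4, 80.7 and 80.4 FPKM in shaded, against 108, 125 and 103 FPKM in sunlight leaves, again separate in FPKM and not after TMM scaling. Its log2 fold change was -0.44 ± 0.39 (SE) over 6 libraries.

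Light-harvesting antenna proteins, the abundant members of the family to which ELIPs belong, did not follow the ELIP contigs as a list. Over 6 libraries 22 of 38 tested unigenes had lower and 16 higher fitted levels, with a median log2 fold change of -0.09, and over 4 libraries the median was 0.01 with TMM, -0.01 with both other scalings. No antenna unigene was called by edgeR. DESeq2 called 2 of them lower on 4 libraries, where it called 0.449% of all unigenes lower, and none on 6. CL2695.Contig2, chlorophyll a/b-binding protein 7 and the most abundant of the list, had 5593, 2781 and 1515 FPKM in shaded, against 1273, 2979 and 3600 FPKM in sunlight leaves. The groups overlapped widely.

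Of the 27 tested unigenes of chlorophyll synthesis and breakdown, 11 had lower and 16 higher fitted levels over 6 libraries, with a median log2 fold change of 0.13. Unigene15945, the ChlI subunit of magnesium chelatase, which inserts magnesium on the way to chlorophyll, had 185, 177 and 107 FPKM in shaded, against 161, 289 and 281 FPKM in sunlight leaves. Among 140 unigenes of plastid protection (proteases, chaperones and antioxidant enzymes), 63 had lower and 77 higher fitted levels, and the median of 0.04 was -0.01 under upper-quartile scaling. CL596.Contig2, the thylakoid protease FTSH2, had 278, 202 and 153 FPKM in shaded, against 143, 324 and 405 FPKM in sunlight leaves. Rubisco small subunit Unigene33162, which marks leaf identity, had 19660 to 32550 FPKM in shaded and 32180 to 34830 FPKM in sunlight leaves. None of these lists had a unigene called by edgeR. On 4 libraries DESeq2 called 2 of 28 unigenes of chlorophyll metabolism, 2 of 145 of plastid protection and 4 of 14 of leaf identity higher, where it called 0.372% of all unigenes higher, and on 6 libraries it called none of them. The median log2 fold change of the leaf identity list was -0.20 over 6 libraries and 0.58 over 4.

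**Figure D4:**
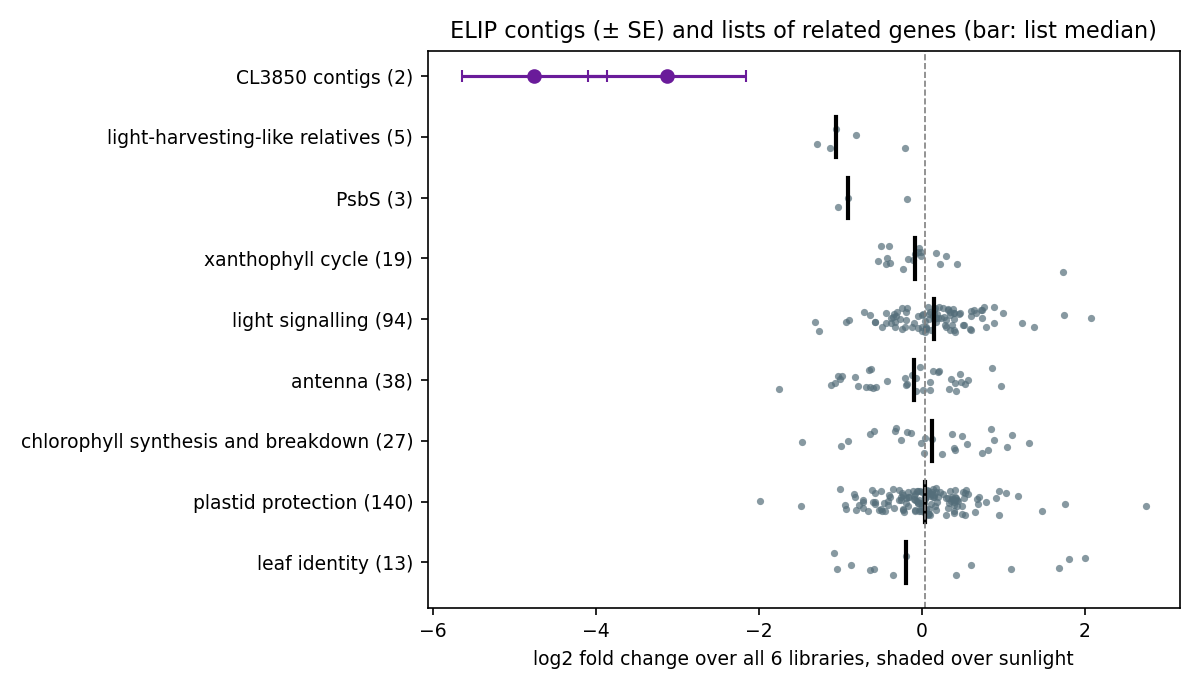
Log2 fold change of shaded over sunlight in the edgeR fit of all 6 libraries (horizontal axis) for the ELIP contigs (top, with SE) and the tested unigenes of 8 lists (rows, number in brackets); black bars are list medians and the dashed line is the median of all unigenes tested, 0.04. The ELIP contigs, at -4.76 and -3.13, lie below every unigene of the 8 lists, and the one-helix and PsbS medians are -1.05 and -0.91.

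The unigenes whose pattern was most like that of CL3850.Contig2 were found by Pearson correlation of log2(FPKM + 0.5) over the 6 libraries among 47524 annotated unigenes, as a description of points that fall into separate groups. The 5 nearest were Unigene33878, an axial regulator of the YABBY family that sets leaf polarity, CL4925.Contig5, imidazoleglycerol-phosphate dehydratase of histidine synthesis, Unigene1986, a TIMELESS-interacting protein, CL7701.Contig1, a poly(A)-binding protein, and Unigene33729, an S-acyltransferase. Their correlations lay between 0.996 and 0.9992. Their differences were smaller: Unigene33878 had 39.4, 66.2 and 21.6 FPKM in shaded, against 96.8, 90.2 and 96.7 FPKM in sunlight leaves. With so few libraries such likeness is common, and 487 unigenes had a correlation of at least 0.95. Of the 5, 2 remained among the nearest under rank correlation and 0 under correlation of linear FPKM.

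For CL3850.Contig1, compared in the same way after its values were seen, the 5 nearest included Unigene57622, a RABD1 small GTPase of vesicle traffic, CL10888.Contig1, uncharacterised, CL12435.Contig2, a cyclin-dependent kinase B2, and CL6292.Contig2, a predicted protein. CL10888.Contig1 had 0.152, 1.74 and 0.170 FPKM in shaded, against 8.59, 4.67 and 5.40 FPKM in sunlight leaves, far below the levels of CL3850.Contig1. CL12435.Contig2, which acts in cell division, had 0.601, 2.12 and 0.575 FPKM in shaded, against 5.16, 4.18 and 4.02 FPKM in sunlight leaves. Of the 5, 1 remained under rank correlation and 0 under linear FPKM. A correlation of at least 0.95 was reached by 328 unigenes.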

How the data were processed

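Leaf mRNA was sequenced by the authors on an Illumina HiSeq instrument, and unigenes were built by de novo assembly (Trinity, then TGICL and Phrap). The authors deposited 1 table with the count of uniquely mapped fragments and the FPKM of each unigene in each of 6 libraries, with protein and nucleotide matches and the score of each match. The aligner and the use of strand are not given in the sources used here. Columns were assigned to libraries by the deposited key, and 2 codes in the sample descriptions read differently, which leaves the groups as they are. By the key these codes belong to Y+S3 and Y1, so the fit on 4 libraries depends on following it. Within each group, the order of counted fragments under the key is that of the clean reads given by the study. FPKM values recomputed from the deposited counts agreed to within 0.0139%. Of 127253 lines, 1 was empty and not analysed here.

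Counts were fitted with edgeR 4.0.16 (filterByExpr, TMM, quasi-likelihood test, Benjamini-Hochberg over all unigenes tested) in R 4.3.3, called at an adjusted p of 0.05. The SE is the fold change divided by the square root of the F statistic. Alternatives were DESeq2 1.42.0, other scalings, no filter, contigs summed per cluster, limma 3.58.1 on log2(FPKM + 0.5), 0.1 or 1 (mean FPKM of at least 1, or no filter), each library left out, and a replicate block. Each library comes from different plants of 1 cultivar and field. The fits were also run on simulated counts with known changes, whose spread followed the average trend and held no outlying library. That run therefore does not show how many changes the fits find in these data. Depth per library is given above, and the floor of 3 fragments covers counting error only.

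The members and lists were chosen with earlier results of these data known. Lists were made from words in the Nr and Swiss-Prot annotation. Named were the ELIP unigene and its cluster, all unigenes with related Nr names, called members of the other lists or otherwise the member with the highest mean FPKM, and the 5 most like in pattern. The other one-helix and PsbS unigenes were named after their values were seen, so that every member of those lists is given. Promoter and protein sequences were not used here. Of the 5 unigenes most like CL3850.Contig1, 1 is not reported here.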

Additional observations from a re-analysis of the deposited data

How the results depend on the processing

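Both ELIP contigs, or their sum where contigs were summed per cluster, had lower levels in shaded leaves under every alternative run in both fits. In the 4 libraries, DESeq2 called both contigs (log2 fold changes of -3.88 for CL3850.Contig1 and -2.48 for CL3850.Contig2, that is 2 ELIP unigenes) among 1033 unigenes, and edgeR without a filter on low counts called the same 2 (-3.86 and -2.47) among 954. Of all unigenes, edgeR called 34 as reported, 20 with RLE factors and 11 with contigs summed per cluster, and limma called 59, 57 and 57 at pseudocounts of 0.5, 0.1 and 1 and 0 without a filter. In all 6 libraries, DESeq2 called both contigs (-4.77 and -3.19, 2 ELIP unigenes) among 592 unigenes. limma called CL3850.Contig1 at pseudocounts of 0.5 (-5.04, 1 ELIP unigene, 19 unigenes in all) and 1 (-5.00, 1 ELIP unigene, 18 in all), and at 0.1 neither contig among 17. The cause of these differences was not tested. edgeR called 0 of all unigenes over 6 libraries, 4782 having an unadjusted p below 0.05.

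Leaving out 1 library at a time, the log2 fold change of CL3850.Contig1 ranged from -5.74 to -3.07 on 4 libraries and from -5.95 to -4.13 on 6, and that of CL3850.Contig2 from -3.85 to -1.74 and from -4.74 to -2.62. On 4 libraries 0 to 2 ELIP unigenes and 0 to 6513 unigenes in all were called by edgeR, the 2 ELIP unigenes without Y+S1 or Y+S2 and the 6513 without Y+S2. On 6 libraries 0 to 7 unigenes were called, the 7 without Y+S3. A lone library was assumed to vary like the other group. Without Y+S1 on 4 libraries, edgeR also called Unigene51633 (-2.08), CL2323.Contig2 (-1.30) and Unigene22288 (-1.13) lower. Among related genes the sign turned in some of these fits. On 4 libraries the log2 fold change ranged from -0.257 to 0.0569 for Unigene38675, from -0.667 to 0.196 for CL2323.Contig1, from -0.398 to 0.814 for CL2695.Contig2 and from -0.879 to 0.05 for Unigene33162. On 6 libraries it ranged from -1.02 to 0.114 for Unigene10410, from -2.80 to 0.341 for Unigene51633, from -0.658 to 0.186 for Unigene33490, from -0.437 to 0.0162 for CL2323.Contig1 and from -0.194 to 0.554 for CL2695.Contig2.

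With the replicate block over 6 libraries, the log2 fold changes were -5.05 for CL3850.Contig1 and -3.90 for CL3850.Contig2, each with an adjusted p of 1.0 in edgeR, and 0 unigenes were called. Deviations of same-numbered libraries from their group means correlated at -0.373, 0.0091 and -0.475, so the numbers were not taken as pairs. On 4 libraries the groups share 1 number and the block could not be fitted. Of the 5 unigenes most like CL3850.Contig2, 0 remained by linear FPKM and 2 by rank, and of the 5 most like CL3850.Contig1, 0 and 1. With 3 libraries a group, 1 cultivar and 1 field, p-values measure the spread between these plants only, and CL3850.Contig2 rests on at most 112 fragments a library.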
